A study of Mus musculus with 12 samples.

Results

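The comparison asked whether the liver answered ethanol feeding differently in mice labelled as liver-specific Sirt6 knockouts and in wild type mice. For each gene it is the ethanol-fed minus pair-fed log2 difference in mice labelled knockout, minus the same difference in wild type mice, and is called the interaction. All 12 of the 12 libraries of the series enter it, and no measured value chose the genes, since all 13097 genes of the deposited count table were tested by name. A negative interaction means that ethanol feeding left the gene lower, relative to its pair-fed level, in mice labelled knockout than in wild type.

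RNA was sequenced from snap-frozen liver of 12 female C57BL/6 mice aged 3 months, in 4 groups of 3 individual mice. The wild type pair-fed and labelled knockout pair-fed groups received an isocaloric control diet for 10 days and then 1 binge of maltose dextrin. For the same 10 days the wild type ethanol-fed and labelled knockout ethanol-fed groups received the Lieber-DeCarli diet containing 5% ethanol, followed by 1 binge of ethanol at 5 g/kg. The effects of the diet and of the binge cannot be told apart with these groups. The sources used here do not give the Cre driver, the deleted exons or whether wild type mice were littermates.

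Sirt6 encodes an NAD-dependent deacylase of chromatin, and ethanol oxidation in hepatocytes alters the balance of NAD and NADH. An interaction in a design of this kind can come from a gene that starts at another level, ends at another level or moves in another direction, so the levels of all 4 groups are needed to read it. Cyp2b10 is the classical mouse target of the constitutive androstane receptor CAR, encoded by Nr1i3, a nuclear receptor of hepatocytes that induces drug-metabolising enzymes when xenobiotics or stress release it from the cytosol. The pregnane X receptor, encoded by Nr1i2, shares many of these targets, and nuclear receptors of this class bind variants of the hexamer AGGTCA.

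Cyp2b10 was the 1 gene whose interaction passed the test, and it lies in a cluster with Cyp2b9 and Cyp2b13 whose values are set beside it below. To show how alike these genes are just before their starts, the 250 bases upstream of each are given from RefSeq on GRCm38.p6, plus strand, with AGGTCA on either strand (AGGTCA or TGACCT) in capitals. They span chr7:25897408-25897657 for Cyp2b10, chr7:26173159-26173408 for Cyp2b9 and chr7:26061245-26061494 for Cyp2b13.
Cyp2b10: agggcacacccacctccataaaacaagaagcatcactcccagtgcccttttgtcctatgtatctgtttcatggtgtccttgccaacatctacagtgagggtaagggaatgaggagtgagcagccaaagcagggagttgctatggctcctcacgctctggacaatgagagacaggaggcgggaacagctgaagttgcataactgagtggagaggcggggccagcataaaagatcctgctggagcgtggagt
Cyp2b9: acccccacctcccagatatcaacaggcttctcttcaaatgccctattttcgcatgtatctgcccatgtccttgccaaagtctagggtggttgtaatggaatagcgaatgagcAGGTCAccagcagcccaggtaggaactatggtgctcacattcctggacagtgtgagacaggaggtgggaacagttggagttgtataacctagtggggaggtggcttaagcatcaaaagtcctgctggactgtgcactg
Cyp2b13: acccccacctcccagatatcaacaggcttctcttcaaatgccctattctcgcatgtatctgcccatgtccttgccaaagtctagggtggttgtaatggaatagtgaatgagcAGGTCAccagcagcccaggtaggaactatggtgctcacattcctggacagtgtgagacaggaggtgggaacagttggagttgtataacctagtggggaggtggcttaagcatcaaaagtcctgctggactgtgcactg
The Cyp2b9 and Cyp2b13 windows each held the hexamer once, at position -138 from the start, whereas the Cyp2b10 window held none. Over all 32851 promoters of the RefSeq table, 14.0% held it in the same window, and a match is a description of letters and not a binding site. The Cyp2b9 and Cyp2b13 windows were identical at 99.2% of aligned bases, and the Cyp2b10 window matched each of them at 75.8%. The phenobarbital-responsive enhancer of Cyp2b10, known to bind CAR, lies further upstream than these windows.

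Total counts ranged from 17305141 to 18279809 per library. Sirt6 itself (chr10:81621786-81627608) had counts of 51, 49 and 68 in pair-fed wild type mice, 52, 46 and 47 in labelled knockout pair-fed mice, 67, 54 and 60 in wild type ethanol-fed mice and 53, 58 and 62 in labelled knockout ethanol-fed mice. The ranges of the genotypes overlapped under both feedings, with genotype differences of -0.23 ± 0.21 and 0.01 ± 0.21 on the log2 scale (SE, n = 3 mice per group), so the genotype is called labelled knockout throughout. A gene-level count also holds reads from exons that a deletion may spare. Mice of a group varied more after ethanol feeding, with biological coefficients of variation of 0.271 in wild type and 0.224 in labelled knockout mice, against 0.117 and 0.114 when pair-fed. Albumin (Alb), the main secreted protein of hepatocytes, took 11.0% to 12.7% of the counts in pair-fed and 6.10% to 9.55% in ethanol-fed libraries. Wild type ethanol-fed mouse 1 stood apart from the other two mice of its group in some of the immune and stress genes described below. Over all genes mouse 3 of that group lay nearly as far from the group mean. The root mean square deviations on the log2 scale were 0.389, 0.286 and 0.381 in mice 1, 2 and 3.

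Ethanol feeding moved a large part of the liver transcriptome in both genotypes, and mostly the same way. In edgeR's quasi-likelihood test at an adjusted p of 0.05, 4380 genes (33.4% of those tested) changed in wild type mice, 2480 higher (18.9%) and 1900 lower (14.5%). In mice labelled knockout 3222 genes changed (24.6%), 1794 higher (13.7%) and 1428 lower (10.9%), and without pair-fed labelled knockout mouse 1, 2 or 3 the count was 2133, 1853 or 2089. With total counts in place of TMM, higher genes made up 74.1% of the wild type calls instead of 56.6% and 69.9% of the labelled knockout calls instead of 55.7%, and the median log2 change over all genes moved from 0.03 to 0.18 and from 0.04 to 0.14.

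Of these, 2417 genes were called in both genotypes, which is 55.2% of the wild type calls and 75.0% of the labelled knockout calls, and 2413 of them had the same sign. The arms share no library, and across the 13097 genes, which are not independent replicates, their log2 changes correlated with a Pearson r of 0.819 and a Spearman rho of 0.800. A call in 1 genotype alone was not a difference between genotypes in this test. Among 1963 genes called in wild type mice and not in mice labelled knockout, none had a called interaction, 303 had an unadjusted interaction p under 0.05, and 1869 had the same sign in both. Among 805 genes called in mice labelled knockout and not in wild type mice, none had a called interaction, 144 had an unadjusted p under 0.05, and 754 had the same sign. The share at an unadjusted p under 0.05 was 5.31% over all genes. Both arms are parts of the interaction, so choosing genes called in 1 arm alone favours a small interaction p, and these counts are no test.

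**Figure D1:**
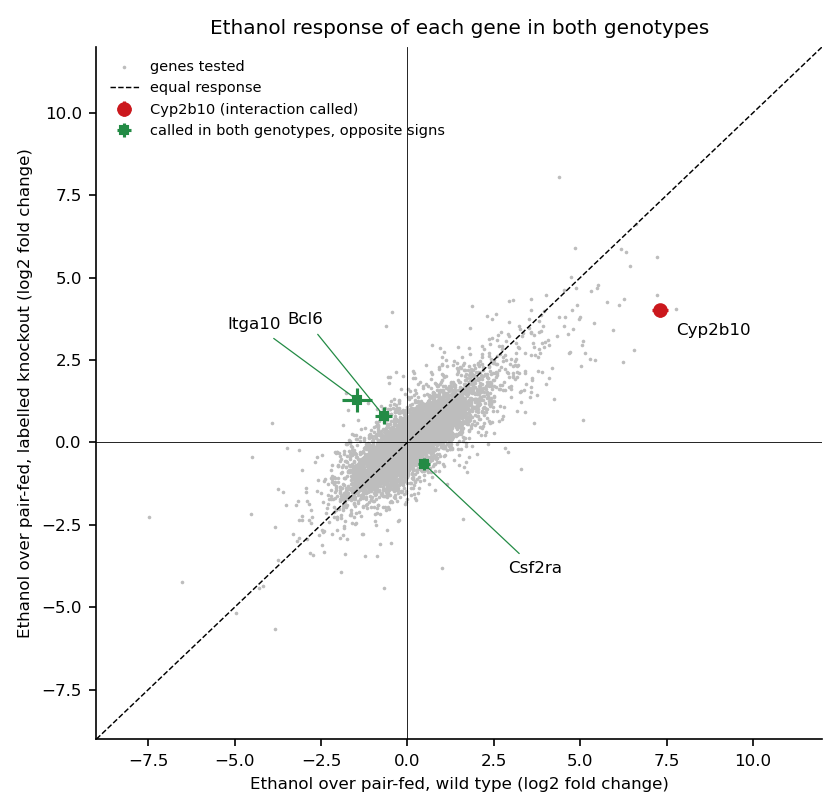
Log2 fold change of ethanol-fed over pair-fed mice in wild type (x axis) and in mice labelled knockout (y axis), 1 point per gene; the marked genes have bars of 1 SE and the dashed line is an equal response. Most genes lie along the line, Cyp2b10 lies below it at 7.31 and 4.01, and Bcl6, Csf2ra and Itga10, called in both genotypes, lie in the quadrants of opposite signs.

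The interaction was called for 1 of 13097 genes (0.00764%), with 1 lower (0.00764%) and none higher (0%) in mice labelled knockout. At an unadjusted p under 0.05 there were 696 genes (5.31%), 294 positive (2.24%) and 402 negative (3.07%), and an interaction above 0, whatever its p, was found in 6554 genes (50%). With total counts in place of TMM the unadjusted genes were 178 positive and 415 negative, so that positive ones made up 30.0% instead of 42.2%, and the median over all genes was -0.05. The next smallest adjusted p after Cyp2b10 was 0.465. The median interaction was 0.0005 on the log2 scale, with the 5th and 95th percentiles at -0.80 and 0.65, and the median SE was 0.285, against 0.202 for the ethanol change in either genotype alone. The 95% interval lay within 2-fold of an equal response for 7907 genes (60.4%) and within 4-fold for 11851 (90.5%), and for 1629 of the 2417 genes called in both genotypes it lay within 2-fold. For the other genes the interval reached beyond 2-fold. Where it also held smaller differences, a 2-fold difference was within the error of 3 mice per group. For genes such as Cyp2b10 the interval lay wholly beyond 2-fold. All these intervals rest on SEs that are approximate, as described with the processing, and so do the counts of genes within a given fold. The count at an unadjusted p under 0.05 was 1533 without wild type ethanol-fed mouse 1 and 452 without wild type pair-fed mouse 2. The count of calls rested on the library and the tool: it was 20 without wild type ethanol-fed mouse 1, 2 without wild type ethanol-fed mouse 3 or labelled knockout ethanol-fed mouse 1, and 15 with DESeq2.

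Sorted by the shape of the response, 293 of the 696 genes moved the same way in both genotypes and less in mice labelled knockout, 121 moved the same way and more, and 282 had opposite signs. Because a log2 interaction compares ratios, the same 4 means can give the opposite sign as a difference of CPM (TMM-normalised counts scaled to a common library size). That was so for 817 genes (6.24%), for 391 of the 2417 genes called in both genotypes (16.2%) and for 4 of the 696. Slc22a3, an organic cation transporter and 1 of those 4, rose from 4.49 to 23.1 CPM in wild type mice and from 1.36 to 11.9 CPM in mice labelled knockout. Its interaction was 0.77 on the log2 scale and -8.05 as a difference of CPM. Cyp2b10 had the same sign on both scales, but its ethanol-fed CPM ranges overlapped between the genotypes, as given below. Its sign as a difference of CPM was not tested.

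Cyp2b10 (chr7:25897658-25926624, plus strand) was induced by ethanol feeding in both genotypes, from a higher starting level and by a smaller factor in mice labelled knockout. In wild type pair-fed mice 1, 2 and 3 it had counts of 150, 140 and 130, or 8.55, 8.18 and 7.60 CPM. In labelled knockout pair-fed mice the counts were 1368, 951 and 1048, or 79.5, 53.4 and 60.5 CPM. Every labelled knockout pair-fed mouse was thus above every wild type pair-fed mouse. After ethanol feeding the counts were 21897, 22009 and 28733 in wild type mice (1134, 1255 and 1473 CPM) and 24020, 16891 and 15509 in mice labelled knockout (1226, 924 and 968 CPM). All ethanol-fed mice were above all pair-fed mice, and the ethanol-fed ranges of the genotypes overlapped.

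The mean of Cyp2b10 went from 8.11 ± 0.480 to 1287 ± 172 CPM in wild type mice and from 64.5 ± 13.5 to 1039 ± 163 CPM in mice labelled knockout (SD, n = 3 mice per group). The ethanol change was 7.31 ± 0.22 on the log2 scale (159-fold) in wild type and 4.01 ± 0.19 (16.1-fold) in mice labelled knockout. Their difference, the interaction, was -3.30 ± 0.25 (95% interval -3.84 to -2.76, edgeR adjusted p = 7.44e-05). The SE and the interval are approximate, as described with the processing. The genotype difference was 2.99 ± 0.19 in pair-fed mice (7.94-fold, edgeR adjusted p = 3.63e-06) and -0.31 ± 0.17 in ethanol-fed mice (adjusted p = 0.413). In the authors' deposited table the genotype log2 fold changes were 2.99 and -0.31, which differ by -3.30. Without any 1 library the interaction was between -3.43 and -3.12, and it was called each time.

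Reads could be shared within the cluster: 8.57% of the 50-base windows of the Cyp2b10 transcript occur in another Cyp2b transcript, against 10.8% for Cyp2b9 and 20.0% for Cyp2b13. How reads that match several genes were counted is not known here, so these shares do not bound the error of a value. These neighbours, the receptors and Slc22a3 were chosen with their values known. Cyp2b9 (chr7:26173409-26210660), a female-predominant P450 of mouse liver, had 464, 482 and 571 CPM in wild type pair-fed and 602, 513 and 685 CPM in wild type ethanol-fed mice. It had 468, 404 and 397 CPM in labelled knockout pair-fed and 598, 657 and 728 CPM in labelled knockout ethanol-fed mice. Its ethanol change was 0.25 ± 0.14 in wild type and was called in mice labelled knockout, where it rose by 0.64 ± 0.15 with ranges that did not overlap (edgeR adjusted p = 0.00734), and the interaction was 0.40 ± 0.20 (adjusted p = 0.948). Cyp2b13 had an interaction of 0.22 ± 0.56, with wild type ethanol-fed mouse 1 at 109 CPM against 381 and 464 CPM in the other two, and -0.19 without that mouse.

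The receptors showed no called interaction. Nr1i3 had 293, 229.7 and 269 CPM in wild type pair-fed and 209, 173 and 150.5 CPM in wild type ethanol-fed mice, which did not overlap, and it fell by 0.57 ± 0.16 (edgeR adjusted p = 0.0131). In mice labelled knockout it had 284, 205 and 236 CPM pair-fed and 213, 219 and 219 CPM ethanol-fed, with an ethanol change of -0.16 ± 0.15 and an interaction of 0.42 ± 0.22 (adjusted p = 0.948). Nr1i2 had an interaction of 0.04 ± 0.23, with a 95% interval of -0.46 to 0.54 that lies within 2-fold.

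Of 22 xenobiotic P450 genes and receptors, 9 rose and 1 fell in wild type mice, and 7 rose and none fell in mice labelled knockout. Over all genes 18.9% rose and 14.5% fell in wild type mice, and 13.7% and 10.9% in mice labelled knockout. The median interaction was -0.05, and 14 of the 22 had an interval within 2-fold. The rise was similar in size in both genotypes for Cyp2c29, an inducible arachidonate and drug P450, with 1.73 and 1.53, and for Cyp3a13, with 1.32 and 1.16. Apart from Cyp2b10, Cyp3a11 and Por, chosen after their values were seen, had an unadjusted interaction p under 0.05. Cyp3a11, the main mouse P450 of the pregnane X receptor, had 1476, 1974 and 2050.3 CPM in wild type pair-fed and 2208, 2865 and 2744 CPM in wild type ethanol-fed mice. In mice labelled knockout it had 3634, 3227 and 3469 CPM pair-fed and 3059, 2485 and 3571 CPM ethanol-fed. Every labelled knockout pair-fed mouse was above every wild type pair-fed mouse, by 0.91 ± 0.17 (edgeR adjusted p = 0.0250), and the ethanol-fed ranges overlapped, as for Cyp2b10. The interaction of Cyp3a11 was -0.69 ± 0.24 (adjusted p = 0.936). Por, the reductase that passes electrons to microsomal P450s, had an interaction of -0.52 ± 0.20 (adjusted p = 0.936), with 1971, 2764 and 2279 CPM in wild type ethanol-fed mice above 1639.7, 1513 and 1577 CPM in labelled knockout ethanol-fed mice.

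**Figure D2:**
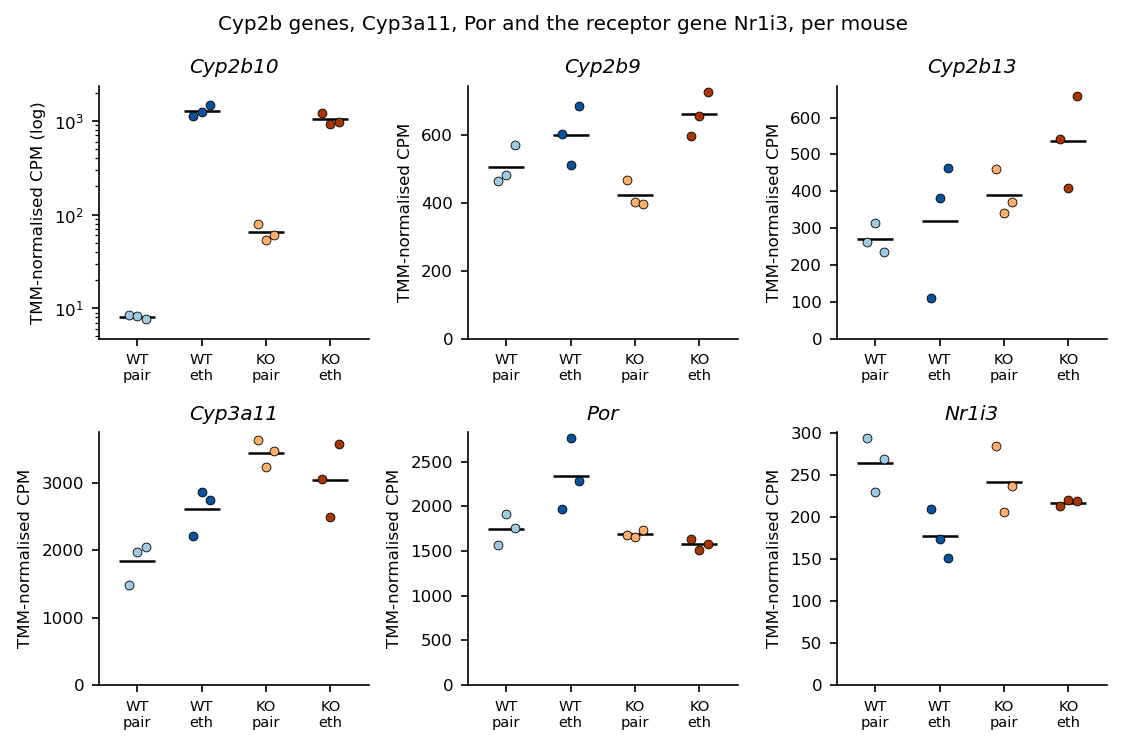
TMM-normalised CPM of 6 genes in each mouse, by group (WT wild type, KO labelled knockout, pair pair-fed, eth ethanol-fed), with lines at the group means; the Cyp2b10 axis is logarithmic and the others start at 0. Pair-fed Cyp2b10 lies between 7.60 and 8.55 in wild type mice but between 53.4 and 79.5 in mice labelled knockout, and the ethanol-fed values of the genotypes overlap.

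Just 4 genes were called in both genotypes with opposite signs, and none had a called interaction. This count was 0 without labelled knockout pair-fed mouse 1 or 2 or labelled knockout ethanol-fed mouse 3, 6 without labelled knockout ethanol-fed mouse 1, and between 0 and 5 with other tools, scalings or filters, and the 3 genes described were chosen after their values were seen. Bcl6 (chr16:23965052-23988612), a transcriptional repressor of hepatocytes and lymphocytes, had 24.5, 13.9 and 19.1 CPM in wild type pair-fed and 9.48, 12.6 and 13.5 CPM in wild type ethanol-fed mice. In mice labelled knockout it had 7.67, 7.02 and 7.16 CPM pair-fed and 8.68, 12.3 and 17.7 CPM ethanol-fed. It fell by 0.69 ± 0.25 in wild type, rose by 0.82 ± 0.26 in mice labelled knockout, and had a pair-fed genotype difference of -1.39 ± 0.26 (edgeR adjusted p = 0.0219). Its interaction was 1.51 ± 0.36 (adjusted p = 0.655).

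Itga10, an integrin subunit for collagen, had 1.65, 3.04 and 2.40 CPM in wild type pair-fed, 0.828, 0.969 and 0.769 CPM in wild type ethanol-fed, 2.79, 1.85 and 2.95 CPM in labelled knockout pair-fed and 2.81, 7.06 and 8.92 CPM in labelled knockout ethanol-fed mice. Wild type ethanol-fed mice were the lowest group, and labelled knockout ethanol-fed mouse 1 lay within the pair-fed range. The interaction was 2.76 ± 0.56 (edgeR adjusted p = 0.465) and was called without that mouse. Csf2ra, the alpha chain of the GM-CSF receptor, had 10.5, 9.69 and 10.8 CPM in wild type ethanol-fed and 5.97, 5.53 and 4.37 CPM in labelled knockout ethanol-fed mice, on either side of the pair-fed values of 6.25 to 9.32 CPM.

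Other genes near the top of the ranking, named after their values were seen, fell in wild type mice and passed no test of ethanol feeding in mice labelled knockout. Dsg1c, a desmosomal cadherin at rank 2, had 18.9, 20.5 and 15.02 CPM in wild type pair-fed and 2.38, 4.28 and 6.00 CPM in wild type ethanol-fed mice, and 14.8, 15.7 and 12.3 CPM pair-fed and 11.2, 11.8 and 11.9 CPM ethanol-fed in mice labelled knockout. The ethanol-fed genotypes did not overlap, and the interaction was 1.81 ± 0.35 (95% interval 1.06 to 2.55, edgeR adjusted p = 0.465). For Dsg1c it was 1.52 and called without mouse 1 of the wild type ethanol-fed group (adjusted p = 0.0345), and 2.15 and called without mouse 3 (adjusted p = 0.0499). Bud13, a component of a spliceosome-associated complex, differed in its starting level. It had 14.0, 19.2 and 16.2 CPM in wild type pair-fed mice, 6.45, 7.47 and 7.51 CPM in labelled knockout pair-fed mice, and between 4.77 and 6.13 CPM in all 6 ethanol-fed mice. Its pair-fed genotype difference was -1.20 ± 0.17 (edgeR adjusted p = 0.00278) and its interaction 1.24 ± 0.24 (adjusted p = 0.465).

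Scd1, the enzyme that makes monounsaturated fatty acids, had 5864, 4032 and 2229.9 CPM in wild type pair-fed and 2631, 2813 and 1965 CPM in wild type ethanol-fed mice. In mice labelled knockout it had 1641, 1615 and 1790.4 CPM pair-fed and 2601, 3689.7 and 3979 CPM ethanol-fed. The wild type groups overlapped, with an ethanol change of -0.71 ± 0.28, while every labelled knockout ethanol-fed mouse was above every labelled knockout pair-fed mouse, and the gene rose there by 1.03 ± 0.28 (edgeR adjusted p = 0.0206). Its interaction was 1.74 ± 0.40 (adjusted p = 0.590).

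Foxq1, a forkhead factor, had 46.3, 70.6 and 113 CPM in wild type ethanol-fed mice and 28.4, 12.4 and 14.5 CPM in labelled knockout ethanol-fed mice, against 23.4 to 40.1 CPM in the 6 pair-fed mice. Its interaction was -2.37 ± 0.50 (edgeR adjusted p = 0.465). Xpo1, the main nuclear export receptor, rose from 24.1, 20.5 and 19.2 to 52.4, 43.8 and 40.6 CPM in wild type mice, by 1.10 ± 0.16 (adjusted p = 0.000412). In mice labelled knockout it had 23.6, 23.5 and 25.2 CPM pair-fed and 30.1, 19.9 and 24.2 CPM ethanol-fed, and its interaction was -1.06 ± 0.23 (adjusted p = 0.465). DESeq2 called Cyp2b10 and 14 others, 5 higher and 10 lower in all, and those 14 ranked from 2 to 19 in edgeR's order. Dsg1c, Itga10, Setdb2, Bud13, Foxq1, Prom1, Xpo1, Scd1 and Csf2ra were among them, with interactions of the same sign.

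**Figure D3:**
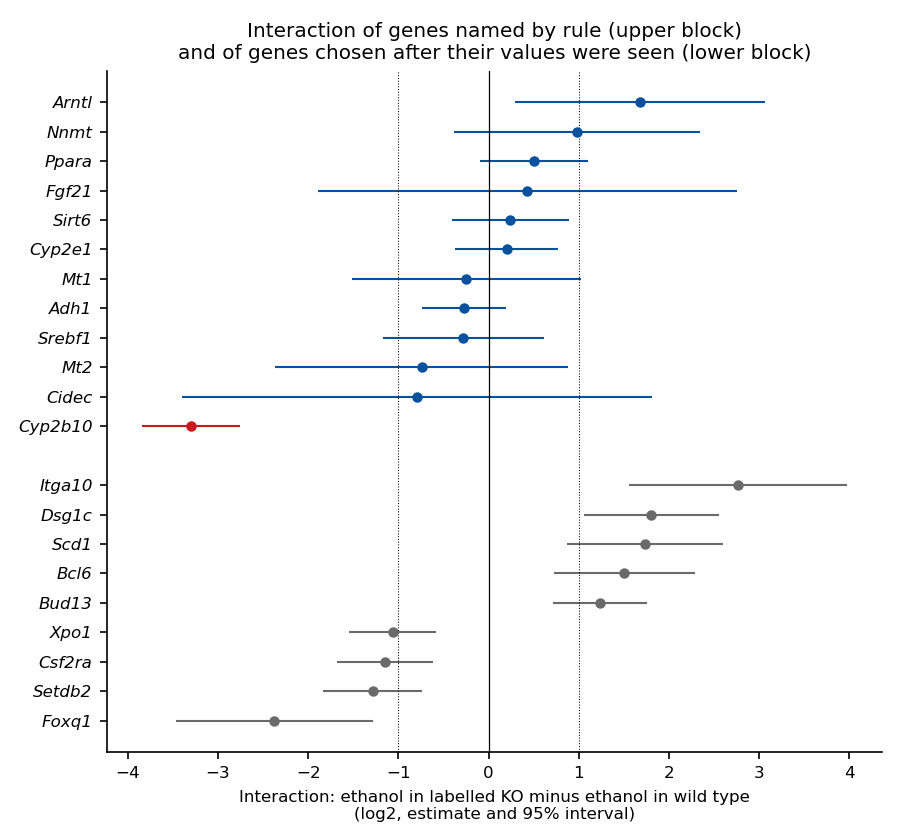
Interaction of single genes on the log2 scale (point, with bars for the 95% interval) in 2 blocks, the genes named by rule above and genes chosen after their values were seen below; dotted lines mark a 2-fold difference between the responses. Cyp2b10 (red) is the gene called, at -3.30, and the intervals of Fgf21, Mt1 and Cidec reach past 2-fold on both sides of 0.

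The genes with the strongest standing genotype differences showed the question from the other side, since an interaction is also the change of a genotype difference on ethanol feeding. In pair-fed mice 114 genes differed between the genotypes (0.87%), 92 higher (0.702%) and 22 lower (0.168%) in mice labelled knockout. In ethanol-fed mice 148 differed (1.13%), 99 higher (0.756%) and 49 lower (0.374%). The pair-fed count was 48, 57 and 68 without wild type pair-fed mouse 1, 2 or 3, while leaving out mouse 2 or 3 of the labelled knockout pair-fed group gave 64 and 69. The ethanol-fed count was 697, 93 and 98 without wild type ethanol-fed mouse 1, 2 or 3, and 288, 69 and 72 without labelled knockout ethanol-fed mouse 1, 2 or 3.

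Both feedings shared 56 genes, 49.1% of the pair-fed and 37.8% of the ethanol-fed calls, and all 56 had the same sign. None had a called interaction, 4 had an unadjusted p under 0.05, the values ran from -1.99 (Igf2) to 1.73 (Apba2), and 18 had an interval within 2-fold. Of 58 genes called in pair-fed mice alone, 25 had an unadjusted interaction p under 0.05, and of 92 called in ethanol-fed mice alone 47 did. The share over all genes was 5.31%. The interaction is also the difference of these genotype contrasts. Choosing genes called under a single feeding therefore favours a small interaction p, and these counts are no test. Across all genes the genotype differences under the 2 feedings correlated with a Pearson r of 0.491, and they share no library.

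Some of these genes fell with ethanol in both genotypes from very different levels, as a ratio comparison shows, and are named after their values were seen. Adgrv1, a large adhesion receptor gene, had 3.08, 4.03 and 4.73 CPM in wild type pair-fed and 312, 316 and 303 CPM in labelled knockout pair-fed mice, and 0.932, 0.912 and 2.20 CPM and 106, 65.6 and 84.0 CPM after ethanol feeding. It fell by 1.53 ± 0.31 in wild type and fell by 1.86 ± 0.24 in mice labelled knockout, with an interaction of -0.33 ± 0.40 (edgeR adjusted p = 0.952) and 0.23 without wild type ethanol-fed mouse 3. Grid1, a glutamate receptor subunit gene, fell by 1.78 ± 0.26 and 1.38 ± 0.19 in the same order, with an interaction of 0.40 ± 0.32, or 0.13 without wild type ethanol-fed mouse 1. Mup20, the major urinary protein darcin of male mice, fell by 0.97 ± 0.22 and 1.03 ± 0.21, with an interaction of -0.06 ± 0.30 and a 95% interval of -0.71 to 0.59. Its sign turned without any 1 of 4 libraries, to at most 0.17.

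The imprinted genes were more scattered. H19, a maternally expressed non-coding RNA, had 17.3, 9.59 and 6.78 CPM in wild type pair-fed, 1.81, 5.02 and 1.54 CPM in wild type ethanol-fed, 650.3, 997 and 323 CPM in labelled knockout pair-fed and 404, 275 and 251 CPM in labelled knockout ethanol-fed mice, with an interaction of 0.94 ± 0.71 that ran from 0.48 without wild type pair-fed mouse 1 to 1.65 without wild type ethanol-fed mouse 2. Meg3, another imprinted non-coding RNA, had 64.1, 51.9 and 57.1 CPM in labelled knockout ethanol-fed mice against 10.7, 8.26 and 17.6 CPM in the pair-fed ones and 2.75 to 10.9 CPM in the 6 wild type mice. It rose in mice labelled knockout by 2.24 ± 0.39 (edgeR adjusted p = 0.00239), and its interaction was 1.32 ± 0.58 (adjusted p = 0.936), or 2.08 without wild type ethanol-fed mouse 1, which had 10.9 CPM against 3.99 and 3.08 CPM in the other two. Cyp2d9, a male-predominant steroid hydroxylase, had 665 to 916 CPM in the 6 mice labelled knockout and 44.7 to 116 CPM in the 6 wild type mice, with an interaction of 0.36 ± 0.42 and a change of sign to -0.11 without wild type pair-fed mouse 2.

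Gene lists are described next by their counts and their median interaction, to be read against 0.0005 and 5.31% over all genes, and their genes outside the naming rule were chosen after their values were seen. Counts that rose or fell are to be read against 18.9% and 14.5% over all genes in wild type mice. In mice labelled knockout these shares were 13.7% and 10.9%. Markers of Kupffer cells, the resident macrophages of liver, had the largest negative median of the lists with more than 10 tested genes. In bulk liver, fewer cells of a type and less RNA per cell cannot be told apart. The summed level of the 12 markers was 609, 406 and 558 CPM in wild type pair-fed, 673, 334 and 291 CPM in wild type ethanol-fed, 602, 768 and 741 CPM in labelled knockout pair-fed and 374, 280 and 282 CPM in labelled knockout ethanol-fed mice. Labelled knockout ethanol-fed mice were below all labelled knockout pair-fed mice, whereas wild type ethanol-fed mouse 1 was above and the other two were below the wild type pair-fed range. Ethanol lowered 11 of the 12 in mice labelled knockout and called none in wild type, and all 12 interactions were negative, with a median of -0.86, 7 at an unadjusted p under 0.05 and none called.

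This pattern turned on wild type ethanol-fed mouse 1. Without it the median was -0.41, none of the 12 had an unadjusted p under 0.05, and 10 of the 12 fell in wild type mice too. The count at an unadjusted p under 0.05 ran from 0 (without that mouse, or without labelled knockout pair-fed mouse 2) to 12 (without wild type ethanol-fed mouse 3). It was 11 without wild type ethanol-fed mouse 2, 4 without wild type pair-fed mouse 3, 2 without labelled knockout ethanol-fed mouse 3, and 1 without wild type pair-fed mouse 2, labelled knockout pair-fed mouse 3 or labelled knockout ethanol-fed mouse 2. The fall in mice labelled knockout was called for 5 markers without labelled knockout ethanol-fed mouse 3 and for 7 without labelled knockout pair-fed mouse 2 or labelled knockout ethanol-fed mouse 2. Clec4f, a lectin made by Kupffer cells alone in mouse liver, had 138, 74.4 and 62.9 CPM in wild type ethanol-fed mice against 117, 83.0 and 108 CPM pair-fed, and 79.6, 58.9 and 55.7 CPM against 112, 145 and 129.8 CPM in mice labelled knockout. Its interaction was -0.83 ± 0.37 (edgeR adjusted p = 0.936), or -0.41 without wild type ethanol-fed mouse 1. Markers of sinusoidal endothelial cells, which line the liver capillaries, were also high in that mouse, with a sum over 11 genes of 685 CPM against 411 and 390.2 CPM in the other two. Ethanol lowered 1 of those 11 in wild type mice, or 6 without that mouse, their median interaction was 0.09, or 0.39 without it, and their part in the other results was not tested. All 8 MHC class II presentation genes had a negative interaction as well, with a median of -0.64 and -0.49 without that mouse. All 8 fell in mice labelled knockout, also without any 1 library. The wild type falls numbered 2, or 0 to 4 without 1 library (0 without wild type pair-fed mouse 3, 4 without labelled knockout ethanol-fed mouse 1). An unadjusted p under 0.05 was found for 1 interaction, or 0 to 7 without 1 library (7 without labelled knockout ethanol-fed mouse 1, 6 without wild type ethanol-fed mouse 3, 4 without wild type pair-fed mouse 3).

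Immediate early and interferon genes had negative medians too, and for them leaving out the same mouse moved the median away from 0 and not towards it. Of 16 immediate early genes, which encode transcription factors and feedback regulators induced within minutes of a stimulus, 12 rose in wild type and 7 in mice labelled knockout, and the median interaction was -0.69 with 3 negative at an unadjusted p under 0.05. Without wild type ethanol-fed mouse 1 the median was -0.88, with 7 negative and 1 positive. The count that rose in mice labelled knockout was 4 without labelled knockout pair-fed mouse 1 or labelled knockout ethanol-fed mouse 2. Jun, an AP-1 subunit, had 90.3, 161 and 315 CPM in wild type ethanol-fed and 59.0, 107 and 71.1 CPM in labelled knockout ethanol-fed mice, which overlapped, with an interaction of -1.63 ± 0.63 (edgeR adjusted p = 0.936). Fosb, another AP-1 subunit and chosen after its values were seen, had an interaction of 1.58 ± 0.78 (adjusted p = 0.948).

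Of 24 interferon-stimulated and MHC class I genes, ethanol raised 6 and lowered 3 in wild type mice, near the shares of 18.9% and 14.5% over all genes, against 1 and 2 in mice labelled knockout, where the shares were 13.7% and 10.9%. The median interaction was -0.32, with 6 negative and none positive at an unadjusted p under 0.05, and without wild type ethanol-fed mouse 1 it was -0.55 with 11 negative and 10 that rose in wild type. The negative count was 3 without wild type pair-fed mouse 2, labelled knockout pair-fed mouse 2, wild type ethanol-fed mouse 3 or labelled knockout ethanol-fed mouse 2. Rsad2, the antiviral enzyme viperin, had 8.70, 48.0 and 99.7 CPM in wild type ethanol-fed mice, 14.6, 11.4 and 11.7 CPM in labelled knockout ethanol-fed mice and 3.74 to 5.50 CPM in the 6 pair-fed mice. Mouse 1 of the wild type ethanol-fed group was the lowest ethanol-fed value and the other two were the highest. The interaction was -2.17 ± 0.88 (edgeR adjusted p = 0.936), and without that mouse it was -2.67 and was called, and without wild type ethanol-fed mouse 3 it was -1.28.

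Cd14, the endotoxin co-receptor, had 10.0, 34.9 and 40.8 CPM in wild type ethanol-fed and 11.4, 9.41 and 10.2 CPM in labelled knockout ethanol-fed mice, so that mouse 1 lay within the labelled knockout range and the other two above it. Its interaction was -2.01 ± 0.59 (edgeR adjusted p = 0.936), and -2.41 and called without mouse 1. Sgk1, a kinase induced by glucocorticoids and cell stress, had 162, 553 and 873 CPM against 129, 87.6 and 186 CPM in the same groups, and -2.25 ± 0.64, or -2.68 and called without mouse 1. The 20 genes called without that mouse comprised 5 higher and 15 lower, 1533 genes (11.7%) then had an unadjusted p under 0.05, and 5 of the 20 were also among the 15 that DESeq2 called on all libraries. Among 18 inflammatory mediators the median interaction was -0.11, 7 rose and 2 fell in wild type, and 4 rose and 4 fell in mice labelled knockout. Without wild type ethanol-fed mouse 1 the median was 0.02 with 5 rising and 3 falling in wild type, and without wild type pair-fed mouse 2 it was 0.05 with 4 rising, so the median had no stable sign. At an unadjusted p under 0.05, 3 interactions of this list were negative and 0 positive. Leaving out labelled knockout ethanol-fed mouse 1 gave 2 negative and 2 positive, and leaving out mouse 3 of that group gave 4 negative and 0 positive. Il1r1, the interleukin-1 receptor, fell in mice labelled knockout by 1.14 ± 0.24, with an interaction of -1.01 ± 0.33 (adjusted p = 0.936).

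**Figure D4:**
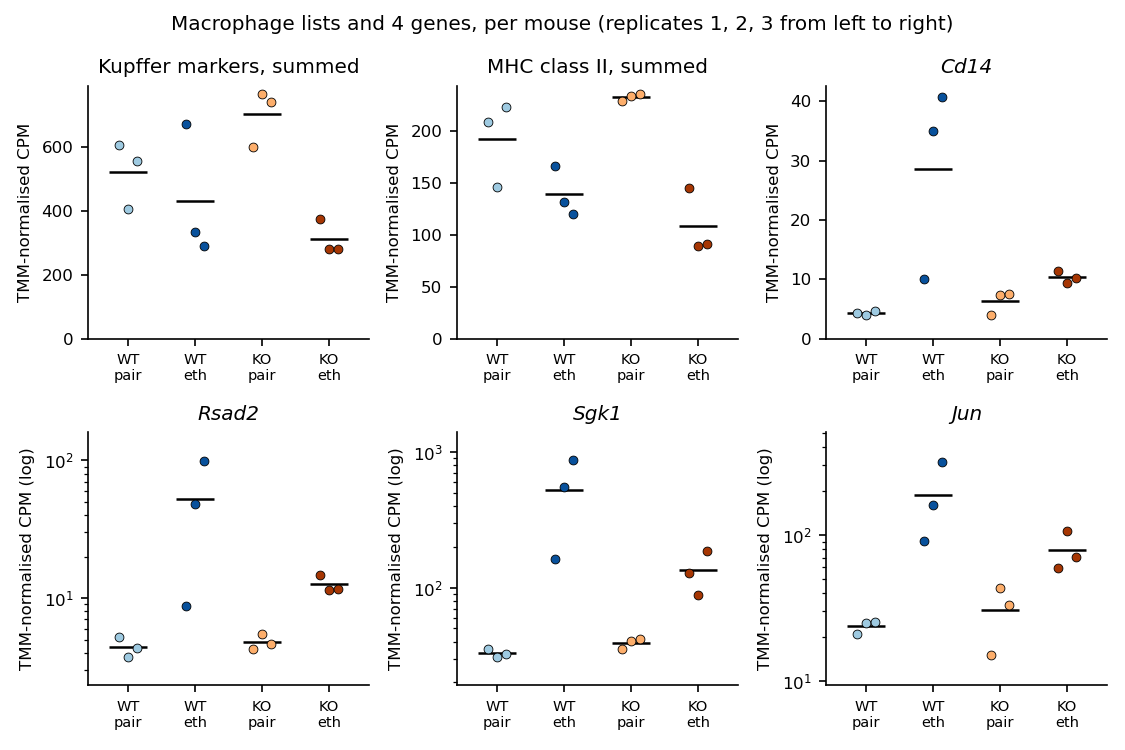
Summed TMM-normalised CPM of 12 Kupffer cell markers and of 8 MHC class II genes (axes from 0), and CPM of 4 genes (Cd14 axis from 0, the others logarithmic), in each mouse by group, replicates 1 to 3 from left to right, with lines at the group means. Wild type ethanol-fed mouse 1 has 673 CPM of Kupffer markers against 334 and 291 CPM in the other two, and 10.0 CPM of Cd14 against 34.9 and 40.8 CPM.

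Of 19 fatty acid synthesis genes, 15 fell in wild type mice. Among mice labelled knockout 8 fell and 1 rose. Their median interaction was 0.48, with 16 positive, 3 of them at an unadjusted p under 0.05, and the median was 0.19 without labelled knockout ethanol-fed mouse 1, when 12 fell in mice labelled knockout, and 0.30 and 0.31 without wild type pair-fed mouse 2 or wild type ethanol-fed mouse 2. The unadjusted count was 1 without wild type pair-fed mouse 2 and 5 without wild type ethanol-fed mouse 1 or labelled knockout ethanol-fed mouse 3. Besides Scd1 the 3 were Acly, the ATP citrate lyase, and Elovl5, an elongase. Acly had 676, 807 and 464 CPM in wild type pair-fed and 336, 246 and 272 CPM in labelled knockout pair-fed mice, which did not overlap, and 209, 95.4 and 121 CPM and 199, 125 and 102 CPM after ethanol feeding, which did. It fell by 2.19 ± 0.33 in wild type and by 1.00 ± 0.32 in mice labelled knockout, and its interaction was 1.19 ± 0.45 (edgeR adjusted p = 0.936). Of 24 cholesterol synthesis and uptake genes 15 fell in wild type and 12 in mice labelled knockout, with a median interaction of 0.26 and none at an unadjusted p under 0.05, although 6 were positive at that level without wild type ethanol-fed mouse 1. The falls in mice labelled knockout numbered 7 without labelled knockout pair-fed mouse 2 or 3 or labelled knockout ethanol-fed mouse 1.

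Of 12 urea cycle and ammonia genes, 3 had an unadjusted p under 0.05, all positive, with a list median of 0.36 that was 0.16 without wild type ethanol-fed mouse 3 and 0.14 without labelled knockout ethanol-fed mouse 3. Asl, argininosuccinate lyase, rose by 0.61 ± 0.20 in wild type and by 1.27 ± 0.20 in mice labelled knockout. Rhbg, an ammonium channel of pericentral hepatocytes, rose by 0.89 ± 0.23 and 1.71 ± 0.23. Their interactions were 0.66 ± 0.28 and 0.82 ± 0.32 (edgeR adjusted p = 0.936 for both), and the list count was 0 without labelled knockout pair-fed mouse 2 and 1 without any of 6 other libraries. Of 17 methionine and one-carbon genes, 6 rose and 4 fell in wild type, and 9 rose and 2 fell in mice labelled knockout, with a median interaction of 0.23 that was 0.38 without labelled knockout ethanol-fed mouse 1 and 0.08 without mouse 3 of that group.

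In bile acid genes the median was -0.07 over 19, or 0.02 without wild type ethanol-fed mouse 1. Cyp8b1, which sets the share of cholic acid, had 151, 198 and 176 CPM in wild type pair-fed and 72.9, 80.2 and 69.1 CPM in labelled knockout pair-fed mice, and 126, 120 and 222 CPM and 216, 85.9 and 125 CPM after ethanol feeding, with an interaction of 1.11 ± 0.43 (edgeR adjusted p = 0.936). Baat, which conjugates bile acids, differed between the pair-fed genotypes by -0.97 ± 0.19 (adjusted p = 0.0254), and its interaction was 0.66 ± 0.26. Abcc4, a basolateral efflux pump and CAR target, rose by 3.79 ± 0.41 in wild type and by 2.58 ± 0.39 in mice labelled knockout, with an interaction of -1.21 ± 0.53.

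Of 20 NRF2 targets, which encode antioxidant and conjugating enzymes, 13 rose and 1 fell in wild type and 12 rose and 1 fell in mice labelled knockout, with medians of 0.83 in both. All 18 aminoacyl tRNA synthetases had an interval within 2-fold, and 10 rose in each genotype. All 17 proteasome subunits and all 20 respiratory chain and ATP synthase genes also had an interval within 2-fold. Of the latter, 10 fell in wild type (5 without wild type ethanol-fed mouse 1) and 1 in mice labelled knockout, with 19 of 20 interactions positive and a median of 0.12. In the integrated stress response and ER stress list 13 of 22 rose in wild type and 12 in mice labelled knockout, with medians of 1.11 and 0.81 and a median interaction of -0.16. Without wild type ethanol-fed mouse 1 that median was -0.26, with 6 negative and 3 positive at an unadjusted p under 0.05 against 2 negative with all libraries, and 1 called lower.

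**Figure D5:**
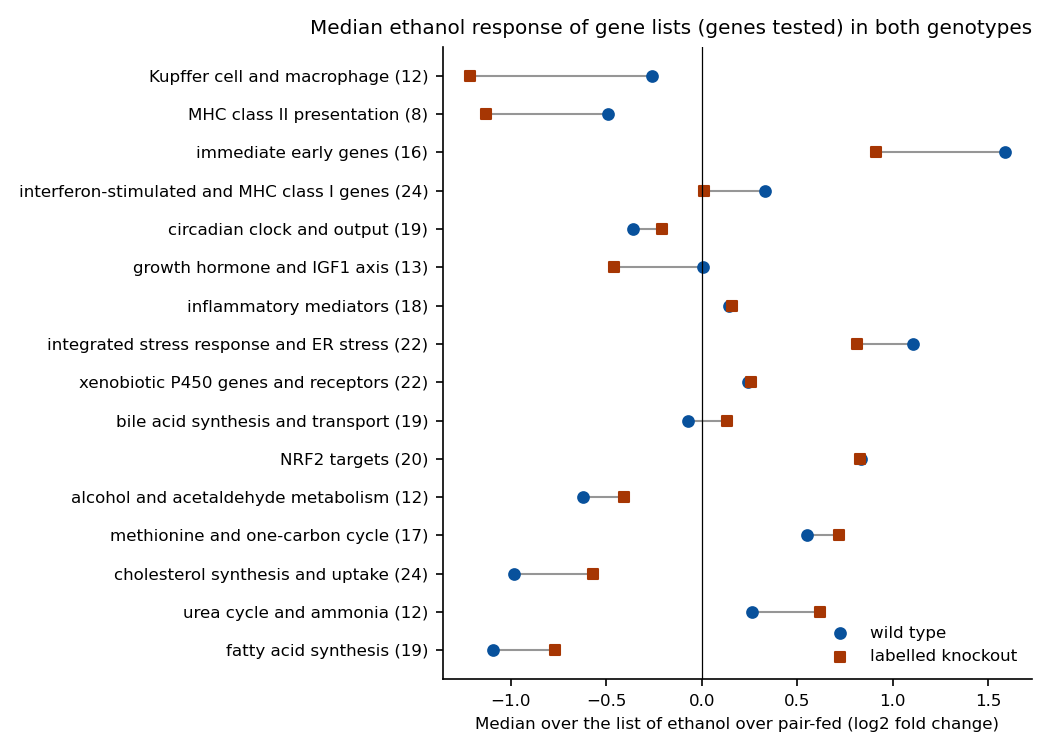
Median log2 fold change of ethanol-fed over pair-fed mice over the tested genes of each of 16 lists (number in brackets), in wild type (circles) and in mice labelled knockout (squares). The widest gaps are those of the Kupffer cell list, at -0.26 and -1.21, and of the immediate early list, at 1.59 and 0.91, whereas the NRF2 list has 0.83 in both.

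The clock list had 19 genes and a median interaction of -0.22, which was -0.10 without labelled knockout pair-fed mouse 1, 0.03 without wild type ethanol-fed mouse 3, and -0.38 and -0.07 without labelled knockout ethanol-fed mouse 1 and 3. Arntl, the clock activator BMAL1, rose in both genotypes, from 0.684, 2.22 and 2.28 to 5.38, 5.19 and 7.54 CPM in wild type and from 0.930, 0.955 and 1.96 to 7.56, 18.6 and 17.2 CPM in mice labelled knockout. The ethanol-fed ranges of the genotypes all but touched, at 7.557 CPM in labelled knockout mouse 1 and 7.538 CPM in wild type mouse 3. The genotype difference in ethanol-fed mice was 1.25 ± 0.40 and not called (edgeR adjusted p = 0.176). The interaction of Arntl was 1.68 ± 0.64 (adjusted p = 0.936). Nr1d1, the repressor REV-ERB alpha that acts on Arntl, had an interaction of -0.94 ± 0.37 (adjusted p = 0.936) and was lower in ethanol-fed mice labelled knockout than in ethanol-fed wild type mice by -1.39 ± 0.26 (adjusted p = 0.0222). In the growth hormone list the median was -0.11 over 13, and Cish, a feedback inhibitor of STAT5, rose in wild type by 1.04 ± 0.21 with an ethanol change of -0.05 ± 0.21 in mice labelled knockout, and had an interaction of -1.08 ± 0.29 (adjusted p = 0.936).

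The other genes named by rule gave intervals of very different width. Cyp2e1, the microsomal ethanol oxidase, fell by 1.37 ± 0.19 in wild type and by 1.17 ± 0.19 in mice labelled knockout, and its interaction of 0.20 ± 0.26 had a 95% interval of -0.37 to 0.77. Adh1, the main hepatic alcohol dehydrogenase, had -0.28 ± 0.22 with an interval of -0.74 to 0.19. Both intervals lie within 2-fold. Ppara, the fatty acid receptor, fell by 1.94 ± 0.20 and 1.44 ± 0.20, with an interaction of 0.50 ± 0.28.

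Srebf1, the activator of fatty acid synthesis genes, had ethanol changes of -1.91 ± 0.30 and -2.19 ± 0.30, both called, with an interaction of -0.28 ± 0.41. Mt1 and Mt2, the zinc-binding metallothioneins, rose in both genotypes and had interactions of -0.25 ± 0.58 and -0.74 ± 0.74, and Nnmt, nicotinamide N-methyltransferase, had 0.98 ± 0.62. The fusion protein gene of lipid droplets Cidec had 9.99, 165 and 229.9 CPM in wild type ethanol-fed and 52.9, 32.1 and 71.2 CPM in labelled knockout ethanol-fed mice, and an interaction of -0.79 ± 1.18. Fgf21, the hepatokine, had 31.3, 78.6 and 18.9 CPM against 13.2, 70.7 and 81.4 CPM, and 0.43 ± 1.06. For these and for Sirt6 (0.24 ± 0.30) the adjusted p was between 0.948 and 0.973, and a 2-fold difference of response in Cidec, Fgf21 or Mt2 was within the spread between mice.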

How the data were processed

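RNA from 12 mouse livers was sequenced, and the deposited table gives raw whole-number counts per gene, per the file headers. The same table gives the authors' log2 fold changes between genotypes with their p-values, and a gene length. STAR 2.5, featureCounts, Subread 1.5.3, edgeR 3.20.8 and mm10 are named, with no role or order, per the submitters' processing notes. Neither the annotation nor the strand setting is given in the sources used here, and overlapping or antisense genes may share reads. Replicates are individual mice per the series' design text, and those of a group differed by 12.5 to 110 times the counting variance. Total counts were 17305141 to 18279809. Reads carry no molecular identifiers, so counting precision is not that of molecules.

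From the counts, 1 model with 4 group means (8 residual degrees of freedom) was fitted to all 13097 genes with edgeR 4.0.16 in R 4.3.3, with TMM scaling, quasi-likelihood tests and Benjamini-Hochberg adjustment at 0.05 over all genes. The interaction, the ethanol change in each genotype and the genotype difference under each feeding are contrasts of that fit. Adjusted p-values in the text are from this test unless another tool is named. The values given as SE did not always combine as SEs of independent estimates do, so they and the 95% intervals are approximate. For Apba2 the genotype differences had 0.43 pair-fed and 0.42 ethanol-fed, and the interaction had 0.89, above their sum. The ethanol changes of Cyp2b10 had 0.22 and 0.19, which would give more than its interaction SE of 0.25. Those of Adh1 did combine, with 0.15 for each and 0.22 for the interaction. CPM are counts scaled to the TMM-normalised library size. The same fit was also run, after the main fit, on simulated counts with known changes in the labelled knockout ethanol-fed group. Those counts had the same dispersion trend in all groups, whereas the real ethanol-fed mice varied more than the pair-fed mice. That run therefore does not show how the test performs in these data. Alternatives were median-of-ratios size factors, total counts, a filter at 1 CPM in 6 libraries, no filter, DESeq2 1.42.0, limma 3.58.1 (voom, also with group quality weights), a replicate block, fits of the compared groups, and leaving out each mouse. The main fit applied edgeR's expression filter, which removed none of the 13097 genes. The setting without a filter thus repeats the main fit and adds no support.

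Genes named by rule were those called for the interaction (over all genes, within a list, or with opposite ethanol changes), which gave Cyp2b10, and 12 preset genes that include it. Any other is said to be chosen after its values were seen. The 49 lists (40 pathways and 9 cell types) hold 752 genes, of which 716 were tested and 36 have no row in the table used here. The comparison, genes and lists were chosen with earlier results of these data known. Promoter sequences are from RefSeq on GRCm38.p6. No per-sample column was left unused (0). A gene among those with opposite ethanol changes is not reported here.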

Additional observations from a re-analysis of the deposited data

Results flagged for a closer look

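The ethanol response of Cyp2b10 differed between the genotypes by a test of the difference itself, with an interaction of -3.30 ± 0.25 on the log2 scale (edgeR adjusted p = 7.44e-05). All 3 wild type and all 3 labelled knockout ethanol-fed mice were above the pair-fed mice of their genotype, so the difference is one of size and not of direction. The pair-fed level was higher in mice labelled knockout than in wild type, and the ethanol-fed ranges of the genotypes overlapped. The groups of 3 mice are too small for a test of single outlying samples.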

How the results depend on the processing

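The Cyp2b10 interaction was called under every setting run, between -3.34 and -3.28 over tools, scalings and filters and between -3.43 and -3.12 without any 1 library, with adjusted p from 8.41e-30 to 0.000966. DESeq2 called 15 interactions (5 higher, 10 lower; 8 smaller in mice labelled knockout and 7 of opposite sign), 253 pair-fed and 448 ethanol-fed genotype differences. Voom with group quality weights called 554 and 21 genotype differences, and fits of the 2 compared groups called 481 and 47. Leaving out 1 library gave 1 to 20 interactions (0 to 5 higher, 1 to 15 lower; 1 to 16 smaller, 0 to 4 of opposite sign), 48 to 151 pair-fed and 69 to 697 ethanol-fed genotype differences, 3023 to 4884 ethanol changes in wild type and 1853 to 3867 in mice labelled knockout. The cause was not tested for any of these.

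Interactions that changed sign were near 0 or wide. Cidec was 0.0296 with voom and 0.0292 with weighted voom, against -0.79, and Nr1i2 was -0.00615 with total counts. Without 1 library, Mt1 ran from -0.61 to 0.0782, Srebf1 from -0.58 to 0.14, Fgf21 from -0.0142 to 1.19, Cyp2b13 from -0.19 to 0.59, Nr1i2 from -0.15 to 0.15, Adgrv1 from -0.55 to 0.23, Mup20 from -0.23 to 0.17 and Cyp2d9 from -0.11 to 0.68.

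The replicate numbers did not pair the mice: deviations of same-numbered mice correlated between -0.17 and 0.16, over 0.1 in 2 of 18 pairs. Some differently numbered ethanol-fed mice were more alike. Wild type mice 3, 2 and 1 correlated with labelled knockout mice 1, 3 and 2 at 0.35, 0.34 and 0.27. All other pairs across these ethanol-fed groups were negative, from -0.24 to -0.09. Deviations were taken from the group mean and cancel within a group, so strong positive pairs bring negative ones with them. The cause of the positive pairs was not tested. With the replicate block there was 1 interaction call, Cyp2b10 at -3.30, with 3949 and 2915 ethanol changes in wild type and in mice labelled knockout and 99 and 118 genotype differences in pair-fed and ethanol-fed mice. Gene-level depth limits low genes, and 3 mice per group limit the rest.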

Other observations

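Acute phase proteins, which the liver secretes in inflammation, had a median interaction of 0.43 over 18 genes, with 15 positive and none at an unadjusted p under 0.05. Their summed level was 20767.5 and 20217 CPM in labelled knockout ethanol-fed mice 1 and 2 and 47645 CPM in mouse 3, the highest of the 12 libraries, and 17284 to 27367 CPM in wild type ethanol-fed mice. Without labelled knockout ethanol-fed mouse 3 the median was -0.12, and without wild type ethanol-fed mouse 3 it was 0.25.

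Of 18 matrix and fibrosis genes, 17 had a positive interaction, with a median of 0.28 (0.40 without wild type ethanol-fed mouse 1) and 1 at an unadjusted p under 0.05. In this list 2 genes rose and 1 fell in wild type mice, and 4 rose in mice labelled knockout. Over all genes 18.9% rose and 14.5% fell in wild type mice, and 13.7% rose in mice labelled knockout. The share at an unadjusted interaction p under 0.05 was 5.31%. Markers of stellate cells and fibroblasts, the matrix-making cells of liver, had a median of 0.10 over 11. Of 13 tested male-biased liver genes, 6 were higher and 1 lower in mice labelled knockout than in wild type when pair-fed, and 5 were higher and none lower when ethanol-fed, with a median interaction of -0.06, or 0.36 without wild type ethanol-fed mouse 1. The list of 15 female-biased liver genes had 1 higher and 0 lower under pair feeding. Under ethanol feeding it had 2 higher and 0 lower. Genotype differences over all genes were called higher for 0.702% and lower for 0.168% among pair-fed mice. Among ethanol-fed mice these shares were 0.756% and 0.374%. A difference between the male-biased and female-biased lists was not tested. These mice are all female by their labels.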
